A study of Mus musculus with 24 samples.

Results

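Rab GTPases are small proteins that mark each membrane compartment of a cell and direct the vesicles that move between compartments. Their genes were followed here in microglia, which are macrophages that reside in brain tissue. Members were the protein-coding mouse genes whose symbol is Rab, a number and at most a letter and a further digit. The rule found 59 genes among 22064 gene identifiers. The table gave values for 55 of them and was blank in every library for Rab15, Rab17, Rab38 and Rab40b. After the filter on low counts 40 Rab genes were tested, among 10219 genes. The other 15 with values had means of at most 1.97 CPM (CPM is a count relative to its library's TMM-adjusted total).

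The 24 libraries fell into 4 groups of 6. All came from wild-type mice, sampled on day 28. Sham mice had a sham operation and PBS, and BCAS mice had the BCAS operation and PBS. BCAS commonly stands for bilateral carotid artery stenosis, a narrowing of both carotid arteries that reduces forebrain blood flow. The ND-Exos and WD-Exos groups had the same operation and received exosomes of the kind so named, whose letters the labels do not spell out, at 100 µg by tail vein every 3 days. The series title gives foam cells, lipid-laden macrophages, as the source of the exosomes. No group here joined exosomes with the sham operation, so every exosome value is from operated mice. Microglia were sorted by fluorescence-activated cell sorting, and complementary DNA was made by Smart-seq2.

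As background, a Rab protein is active when it holds GTP and then binds effectors that tether, move or fuse a vesicle. Exchange factors load the GTP, GTPase-activating proteins (GAPs) end the signal, and GDI proteins return the Rab to the cytosol. Macrophages take up myelin debris, lipoproteins and extracellular vesicles into endosomes and phagosomes, and Rab5 and Rab7 proteins mark the early and late stages of that route. Rab27, Rab35, Rab11 and Rab31 proteins are known for roles in the release of exosomes by cells.

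Depth was 24277722 to 28892423 counts per library, with 8515 to 10794 genes detected in each. Whether the 6 samples of a group are from separate mice is not stated in the labels, so the p-values reflect sample-to-sample spread that may be technical. In bulk RNA, fewer cells of a type and less RNA per cell cannot be told apart. The 10 microglial markers summed to 32937 to 61503 CPM in every library. Summed levels of the other marker lists ranged from 0.22 to 1360 CPM for border macrophages, 81.1 to 7636 for oligodendrocytes, 52.1 to 519 for astrocytes and 0 to 543 for endothelial cells. They ranged from 0 to 990 CPM for mural cells, 0.0362 to 351 for neurons, 0 to 31.9 for monocytes, 0 to 1.19 for neutrophils and 0 to 13.8 for T and NK cells. The highest library was from Sham for border macrophages, oligodendrocytes, endothelial cells, mural cells, neurons and T and NK cells. For astrocytes it was from ND-Exos, and for monocytes and neutrophils from WD-Exos. Outside Sham the sums reached at most 20 CPM for mural cells, 23.1 for neurons, 77.6 for endothelial cells, 586 for border macrophages and 5388 for oligodendrocytes. Immediate early genes, which respond to cell handling among other stimuli, summed to 428 to 2576 CPM for Sham, 502 to 17375 for BCAS, 2911 to 5468 for ND-Exos and 1402 to 21967 for WD-Exos. The part of these lists in the Rab values was not tested.

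Together the Rab genes made up a similar share of the counts in every group. Their summed level was 3218 ± 177 CPM (SD, n = 6) for Sham, 3235 ± 266 for BCAS, 3094 ± 307 for ND-Exos and 3239 ± 231 for WD-Exos. Single libraries lay between 2755 and 3586 CPM, with a median of 3215, and the 4 groups overlapped. The 8 Rab genes with the highest level per kilobase of transcript took 55.5% to 70.7% of the Rab counts in a library. Between 34 and 44 Rab genes had a count in a library. The median was 41.5 in Sham, 37.5 in BCAS, 40.0 in ND-Exos and 41.0 in WD-Exos. Genes of any kind with a count numbered 9152 to 10258 in Sham and 8515 to 9888 in BCAS.

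Rab7 (Entrez 19349), the Rab of late endosomes and lysosomes, had the highest level per length, at 276 ± 57 CPM per kilobase over the 24 libraries. Rab14 (Entrez 68365), which works between the Golgi and endosomes and on phagosomes, was next at 107 ± 22.4. Rab7 exceeded Rab14 on this scale in 23 of 24 libraries. Then came the recycling endosome gene Rab11a (Entrez 53869) at 93.1 ± 34.2 CPM per kilobase and its fellow Rab4b at 86.6 ± 22.8. The genes of the endoplasmic reticulum to Golgi step, Rab1b and Rab1a, had 78.5 ± 27.8 and 76.5 ± 19.2. Rab31, a Rab5-related protein of early endosomes, had 75.1 ± 21.5 CPM per kilobase. From Rab14 to Rab31 each neighbour differed from the next by less than their SDs. Rab11b followed at 41.7 ± 11.7 CPM per kilobase and lay below Rab31 in 21 of 24 libraries.

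The 250 bases upstream of the annotated start are shown for 3 members, to set the CG-rich promoter of the abundant Rab14 beside those of Rab32, also abundant, and Rab3b, too low to test, which hold fewer CG. They are RefSeq promoters of mouse build GRCm38.p6, read 5′ to 3′ on the gene's strand, and capitals mark each CG. Rab14 lies on the minus strand at chr2:35201121-35201370, Rab32 on the minus strand at chr10:10558208-10558457 and Rab3b on the plus strand at chr4:108878820-108879069.
Rab14: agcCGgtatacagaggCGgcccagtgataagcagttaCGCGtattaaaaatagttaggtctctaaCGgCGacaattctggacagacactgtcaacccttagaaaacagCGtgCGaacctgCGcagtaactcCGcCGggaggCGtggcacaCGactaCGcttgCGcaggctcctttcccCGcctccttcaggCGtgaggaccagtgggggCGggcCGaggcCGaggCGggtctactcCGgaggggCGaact
Rab32: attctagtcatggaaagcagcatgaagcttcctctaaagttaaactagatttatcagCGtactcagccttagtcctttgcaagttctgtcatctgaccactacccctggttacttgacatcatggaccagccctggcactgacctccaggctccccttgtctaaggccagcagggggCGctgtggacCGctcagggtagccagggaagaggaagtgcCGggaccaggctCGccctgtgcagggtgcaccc
Rab3b: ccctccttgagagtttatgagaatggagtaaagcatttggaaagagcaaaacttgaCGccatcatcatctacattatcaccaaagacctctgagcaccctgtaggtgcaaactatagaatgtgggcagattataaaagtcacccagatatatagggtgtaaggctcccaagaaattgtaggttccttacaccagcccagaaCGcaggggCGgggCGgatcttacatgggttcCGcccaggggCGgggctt

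The Rab14 stretch holds 23 CG, that of Rab32 5 and that of Rab3b 6. RefSeq promoters of 300 bases, 250 before and 50 after the start, were matched for 48 of the 59 Rab genes. Their median CG count was 20, with a range of 5 to 43. It was 24.5 over the 36 matched Rab genes that were tested and 10.5 over the 12 that were not, against 21.0 over all tested genes and 7.0 over all 27025 promoters. CG-rich promoters are typical of broadly expressed genes. The palindromic E-box CACGTG, which lysosomal gene activators of the Tfeb family are known to bind, was in 5 of the 48 Rab promoters on either strand (10.4%). They were those of Rab20, Rab21, Rab23, Rab24 and Rab5a. All promoters held it in 7.24% of cases, and those of tested genes in 10.6%. GAGGAAGT, a form of the site of the myeloid factor Spi1, was in 2 Rab promoters on either strand (4.17%), Rab2b and Rab32, against 3.28% of all promoters and 3.43% of those of tested genes. It can be read in lower case near the end of the Rab32 stretch above. CCGGAAG, a form of the site of Ets-family factors that shares the letters GGAAG with the previous motif, was in 5 Rab promoters on either strand (10.4%). They were those of Rab11a, Rab14, Rab17, Rab24 and Rab8a, and that of Rab14 lies outside the stretch printed above. Among tested Rab genes the share was 11.1%, against 20.6% for all tested genes and 9.12% for all promoters. A match is a description of letters and not a site.

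**Figure D1:**
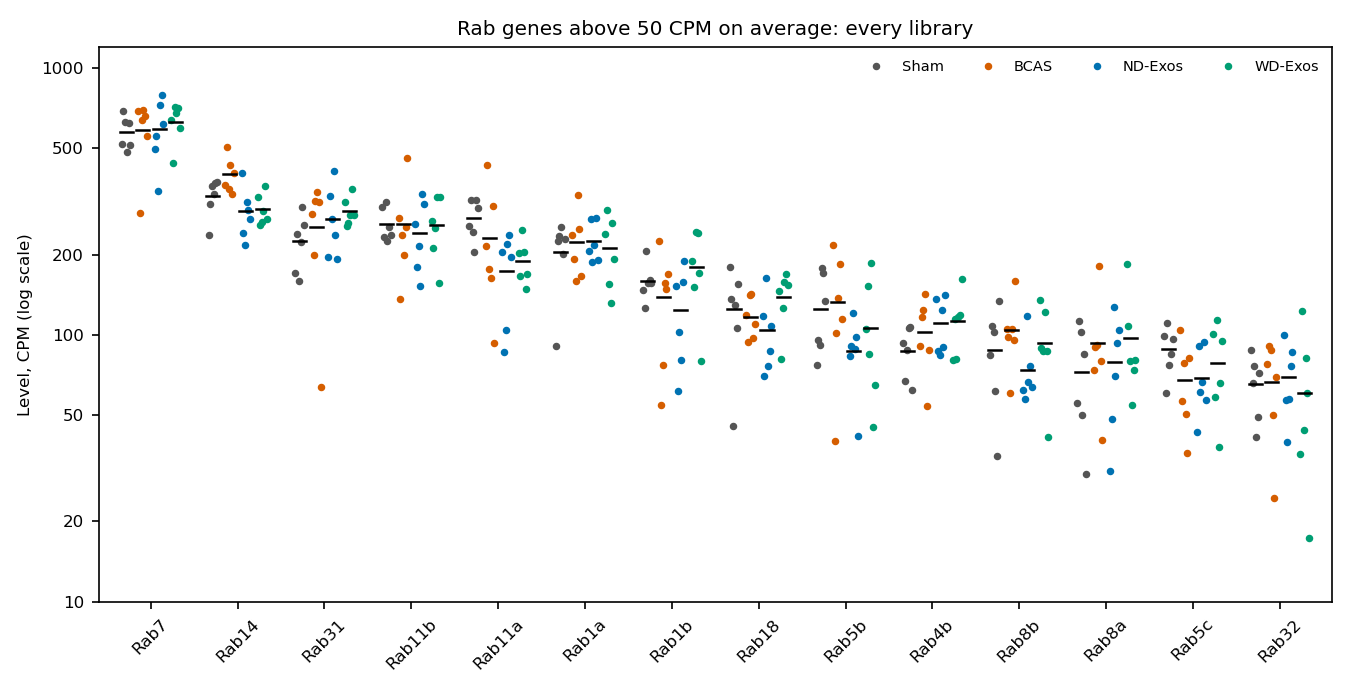
Level of the 14 Rab genes with a mean above 50 CPM in each of the 24 libraries, on a log axis in CPM; points are libraries, coloured by group, and black lines are group means (n = 6). Rab7 stands highest, and the points of the 4 groups overlap for every gene, including Rab14, whose BCAS mean of 400 CPM is above the other 3 group means.

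Of the Rab genes with close relatives, several were expressed as a lopsided pair. Rab7 was above Rab7b in 24 of 24 libraries, at 276 against 1.37 CPM per kilobase. On the same scale Rab4b was above Rab4a in all 24 libraries and Rab11a above Rab11b in 23. The Rab11 order depends on the transcript lengths used, 2336 bases for Rab11a and 6109 for Rab11b. In CPM, without regard to length, Rab11b had the higher mean, 255 against 217. Which transcript lengths apply in these cells was not tested. Of the early endosome genes, Rab5c was above Rab5a in 24 libraries and Rab5b above Rab5a in 22. Rab27a, which docks exosome-containing endosomes at the cell surface, was above Rab27b in all 24, at 8.32 against 0.00275 CPM per kilobase. Rab33b was above Rab33a in 24 libraries and Rab9 above Rab9b, which had no count in any library, in 24. Per kilobase, other pairs were balanced: Rab1a was above Rab1b in 13 libraries, Rab8a above Rab8b in 12 and Rab2b above Rab2a in 12. In CPM the means were 216 for Rab1a against 150 for Rab1b and 85.4 for Rab8a against 89.8 for Rab8b. For Rab2b and Rab2a they were 44.4 and 36.4. Reads can be shared by near-identical transcripts. For 12 Rab genes some estimated counts were not whole, among them Rab33b in 23 libraries, Rab11b in 20 and Rab2a in 19, so their counts are less certain. Of their relatives, Rab33a was not whole in 10 libraries, while Rab11a and Rab2b were whole in all. Which transcripts shared the reads was not tested.

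The abundant members were measured more precisely than the low ones. For the 14 Rab genes above 50 CPM the coefficient of variation that edgeR estimated, moderated over all genes, had a median of 0.369. The standard error (SE) of the log2 fold change in BCAS against Sham had a median of 0.27. For the 16 between 10 and 50 CPM these were 0.992 and 0.87, and for the 10 below 10 CPM they were 2.29 and 2.06. Over all tested genes the median SE was 0.31, 1.03 and 2.18 in the same ranges. Of the 55 Rab genes with values, 25 had a count in every library. Of the 40 tested, 15 were without a count in at least 1 library. The heat map of all members shows the change from even rows at the top to scattered single libraries at the bottom. Among the 14 abundant genes, the Spearman correlation of deviations from the group means over the 24 libraries had a median of 0.00 over 91 pairs, against 0.01 over the 2659 genes above 50 CPM. The highest value was 0.60, for Rab11b and Rab1b, and the lowest was -0.62, for Rab4b and Rab8b. The points of each correlation share libraries and scaling.

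**Figure D2:**
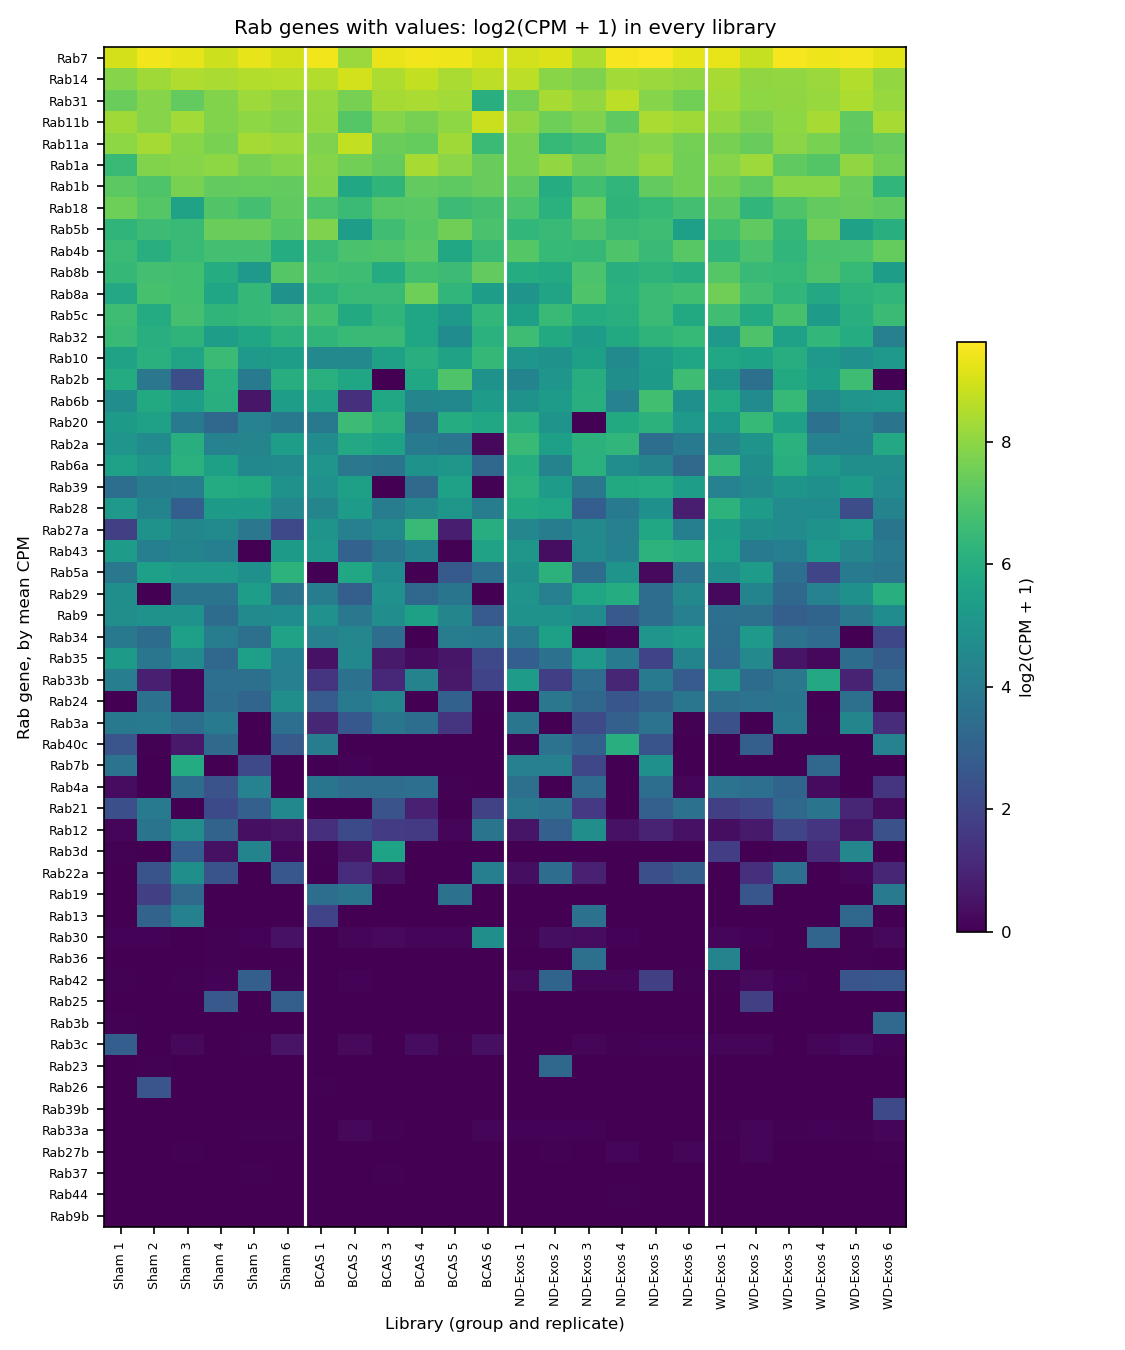
Level of the 55 Rab genes with values as log2(CPM + 1), ordered by mean CPM from top to bottom, with 1 column for each library and white lines between the 4 groups. Rab7, Rab14 and the other abundant genes give even rows, while the 15 untested genes at the bottom are near 0 but for single libraries.

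No Rab gene passed an adjusted p of 0.05 in any comparison. With edgeR's quasi-likelihood test and Benjamini-Hochberg adjustment over 10219 genes, 0 of 40 passed in BCAS against Sham, where 0% of all genes did. The count was 0 of 40 in ND-Exos against BCAS (0.0196% of all genes), in WD-Exos against BCAS (0%) and in WD-Exos against ND-Exos (0.0196%). It was also 0 of 40 when the mean of the 3 operated groups was set against Sham (0.558% of all genes) and in the test of any difference among the 4 groups (0.0294%). At an unadjusted p under 0.05 the Rab counts were 1, 4, 2, 2, 2 and 3 of 40 in that order. All genes reached it in 6.04%, 4.47%, 3.71%, 5.33%, 6.72% and 6.33% of cases. For no Rab gene did all libraries of a group lie beyond all libraries of the other in the 4 pairwise comparisons, which was so for 0.372%, 0.186%, 0.186% and 0.519% of all genes. These comparisons share libraries. The test with limma voom and library weights also called 0 Rab genes in all 6 comparisons. DESeq2 called 1, 3, 0, 2, 1 and 0 Rab genes, against 2.01%, 1.55%, 1.16%, 1.24%, 2.67% and 1.6% of all genes. The genes it called were Rab7b, Rab3d and Rab19, described below by their values.

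In BCAS against Sham the median log2 fold change of the 40 Rab genes was -0.16, with 15 higher and 25 lower, against -0.00 over all genes, with 5097 higher and 5122 lower. In ND-Exos against BCAS it was 0.04 for the Rab genes and 0.01 for all genes. In WD-Exos against BCAS it was 0.08 and -0.02, and in WD-Exos against ND-Exos 0.03 and -0.01. For the operated groups against Sham it was -0.06 for the Rab genes and -0.04 for all genes. These Rab medians lie near 0, and those of the 3 comparisons with an exosome group turned sign in 13 of their alternatives. That for BCAS against Sham was -0.09 without BCAS replicate 2. Over the 14 abundant Rab genes (above 50 CPM) the median in BCAS against Sham was 0.06, so the negative median of the 40 did not hold for them. Their medians were -0.13 in ND-Exos against BCAS and 0.02 in WD-Exos against BCAS. They were 0.11 in WD-Exos against ND-Exos and -0.01 in the operated groups against Sham. For most abundant Rab genes the 95% intervals left room for less than a 2-fold change. Of the 14, the interval lay wholly within 2-fold for 13 in BCAS against Sham, 11 in ND-Exos against BCAS, 12 in WD-Exos against BCAS, 11 in WD-Exos against ND-Exos and 14 in the operated groups against Sham. Rab8a, Rab5b, Rab8b and Rab1b were the exceptions. On simulated data for BCAS against Sham, 200 genes above 100 CPM were changed 2-fold at once, and 38.5% of them passed the adjusted threshold. Most changes of that size were thus missed in that setting, even among abundant genes. The rate for the Rab genes themselves was not simulated. Detection at lower levels was not simulated.

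**Figure D3:**
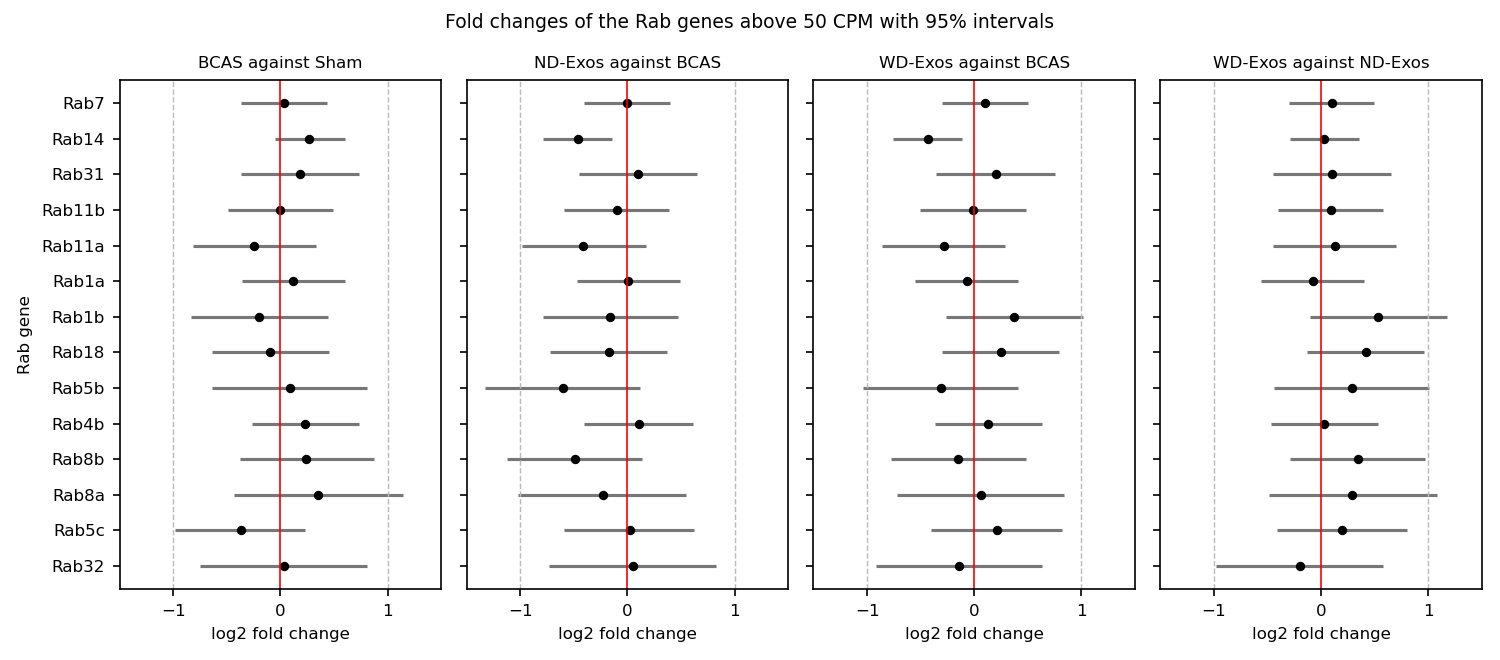
Log2 fold change (points) with its 95% interval (bars) for the 14 Rab genes above 50 CPM in the 4 pairwise comparisons; the red line marks no change and dashed lines mark 2-fold. The intervals of Rab14 lie below 0 in both exosome groups against BCAS (-0.79 to -0.14 and -0.76 to -0.11), and the other intervals all include 0.

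On the route of uptake and degradation, the level of Rab7 was similar in all groups. It had 483, 571 and 688 CPM (lowest, median, highest) in Sham, 287, 652 and 696 in BCAS, 346, 586 and 794 in ND-Exos and 440, 658 and 717 in WD-Exos. Its log2 fold change was 0.03 (SE 0.19, 95% interval -0.37 to 0.43) in BCAS against Sham and 0.10 (SE 0.19, interval -0.30 to 0.49) in WD-Exos against ND-Exos. Rab31 had 159, 231 and 301 CPM in Sham, 64, 300 and 344 in BCAS, 192, 254 and 410 in ND-Exos and 256, 282 and 353 in WD-Exos. Its groups overlapped and its log2 fold change in BCAS against Sham was 0.18 (SE 0.27). Rab5a, which drives early endosome fusion, had 13.5, 35.5 and 74.2 CPM in Sham and 0, 8.02 and 52.5 in BCAS, where 4 of 6 libraries had a count. With ND-Exos it had 0.181, 19.3 and 72.5 CPM and with WD-Exos 3.04, 13.8 and 38.9, so its libraries spread widely within every group. In BCAS against Sham its log2 fold change was -1.29 (SE 1.18).

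Rab20, known for its part in phagosome maturation and its response to interferon, had 8.35, 16.7 and 44.4 CPM in Sham and 10.8, 56.2 and 95.4 in BCAS. It had 0.0335, 46.2 and 71.6 with ND-Exos and 11.2, 26.2 and 87.7 with WD-Exos. In BCAS against Sham its log2 fold change was 1.15 (SE 0.80, interval -0.50 to 2.80), within the spread. Rab32, of lysosome-related organelles and mitochondria, had group means of 65.5 ± 17.4, 66.8 ± 25.5, 69.3 ± 22 and 60.4 ± 37.5 CPM in Sham, BCAS, ND-Exos and WD-Exos. The 7 tested genes of late endosomes and lysosomes had a median log2 fold change of -0.52 in BCAS against Sham (1 higher, 6 lower) and 0.72 in ND-Exos against BCAS (5 higher, 2 lower), and 0 passed in either. Of all tested genes 49.9% and 50.4% were higher. The medians fell on Rab29 (SE 1.16) and Rab34 (SE 1.34), while the abundant Rab7 had 0.03 and 0.00. Both comparisons use the same BCAS libraries, with opposite sign. The 7 tested genes of early endosomes and phagosomes had medians of -0.37 and 0.10 in these comparisons, again with 0 passed.

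Rab14 had the smallest p among the abundant members in both comparisons of exosomes with BCAS, and it was lower with either kind of exosome than in BCAS, without passing the adjustment. Its level was 237, 349 and 373 CPM (lowest, median, highest) in Sham and 336, 386 and 505 in BCAS. It was 217, 282 and 406 with ND-Exos and 259, 281 and 363 with WD-Exos. In each exosome group 5 of 6 libraries lay below every BCAS library. The mean was 400 ± 62.8 CPM in BCAS, 290 ± 66.6 in ND-Exos and 296 ± 41 in WD-Exos, beside 331 ± 52.2 in Sham. In ND-Exos against BCAS the log2 fold change was -0.46 (SE 0.16, 95% interval -0.79 to -0.14, edgeR adjusted p = 0.577). In WD-Exos against BCAS it was -0.43 (SE 0.16, interval -0.76 to -0.11, edgeR adjusted p = 0.823). Both comparisons use the same BCAS libraries. BCAS against Sham gave 0.27 (SE 0.16, edgeR adjusted p = 1), and WD-Exos against ND-Exos gave 0.03. With each library left out in turn, the value stayed between -0.58 and -0.37 for ND-Exos and between -0.49 and -0.35 for WD-Exos.

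Rab11a, which returns receptors from recycling endosomes to the surface, had 205, 278 and 320 CPM in Sham and 93.1, 196 and 434 in BCAS. It had 86.1, 200 and 236 with ND-Exos and 149, 186 and 248 with WD-Exos. Of the 18 operated libraries, 11 lay below every Sham library and 16 below the Sham median, while the highest library of all was from BCAS. The log2 fold change of the operated groups against Sham was -0.48 (SE 0.22, 95% interval -0.93 to -0.02, edgeR adjusted p = 0.697). Its relative Rab11b, whose counts were not whole in 20 libraries, had group means of 260 ± 37.9, 260 ± 109, 242 ± 72.8 and 257 ± 67.6 CPM in Sham, BCAS, ND-Exos and WD-Exos. Rab4b, of fast recycling, had means of 87.4 ± 19.1, 103 ± 31.4, 110 ± 26.2 and 112 ± 30.1 CPM in that order.

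**Figure D4:**
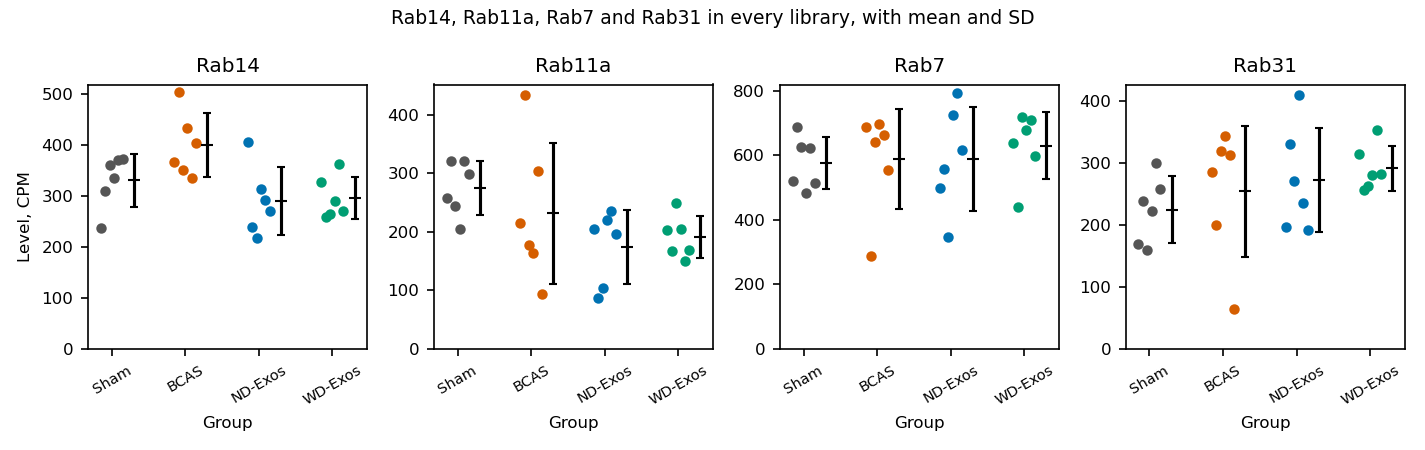
Level of Rab14, Rab11a, Rab7 and Rab31 in CPM in each library (points) by group, with the group mean and SD (n = 6). For Rab14, 5 of 6 libraries in each exosome group lie below every BCAS library; Rab7 and Rab31 overlap throughout, and 11 of 18 operated libraries lie below every Sham library for Rab11a.

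Rab35, which acts in recycling and in exosome release, had 8.66, 20.3 and 42.7 CPM in Sham. It had 0.208, 0.547 and 21.8 in BCAS, 2.79, 12.6 and 35.9 with ND-Exos and 0.154, 7.83 and 22 with WD-Exos. In BCAS, 5 of 6 libraries lay below every Sham library, and replicate 2, at 21.8 CPM, lay within the Sham range. The log2 fold change in BCAS against Sham was -2.41 (SE 1.23, edgeR adjusted p = 0.888). Without BCAS replicate 2 it was -4.55 (edgeR adjusted p = 0.242). With any other single library of these groups left out it lay between -2.58 and -2.15, with an edgeR adjusted p of at least 0.745. Rab27a had 2.5, 16.9 and 30.1 CPM in Sham, 0.732, 26.9 and 89.3 in BCAS, 15.4, 19 and 53.8 in ND-Exos and 12.5, 27.8 and 41.8 in WD-Exos. Its log2 fold change in BCAS against Sham was 1.27 (SE 0.75, interval -0.26 to 2.80). Rab27b was not tested and reached at most 0.115 CPM in a library.

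At the endoplasmic reticulum and Golgi, Rab1a had means of 205 ± 58.8, 223 ± 65.2, 225 ± 38.5 and 212 ± 63.2 CPM in Sham, BCAS, ND-Exos and WD-Exos. Rab1b had 126, 157 and 206 CPM in Sham, 54.5, 153 and 224 in BCAS, 61.4, 127 and 189 in ND-Exos and 79.7, 181 and 243 in WD-Exos. It was among the 3 smallest p in WD-Exos against ND-Exos, with a log2 fold change of 0.53 (SE 0.31, edgeR adjusted p = 1). Rab6a, of traffic through the Golgi, had 21.8, 38.1 and 70.2 CPM in Sham, 8.29, 21.4 and 33.2 in BCAS, 8.99, 22.1 and 70.3 in ND-Exos and 26, 31.7 and 82.8 in WD-Exos. In WD-Exos against BCAS its log2 fold change was 1.05 (SE 0.54, edgeR adjusted p = 1). The 10 tested genes of this step had medians of -0.16, 0.33, 0.33 and 0.15 in the 4 pairwise comparisons, ordered as above. The 7 tested recycling genes had -0.00, -0.10, -0.28 and 0.03 in that order. The 6 tested genes of secretion and surface delivery, of 13 listed, had 0.30, -0.44, -0.13 and 0.29. In WD-Exos against ND-Exos all 6 were higher, with 0 passed, where 49.2% of all tested genes were higher. The values were 0.34 (SE 0.31) for Rab8b, 0.29 (SE 0.38) for Rab8a and 0.28 (SE 0.38) for Rab10. Rab27a had 0.21 (SE 0.73) and Rab3a 0.21 (SE 1.72), so of these only Rab8b exceeded its SE. Rab3d had no count in any ND-Exos library, so its value is not given.

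Rab8a, Rab10, Rab12 and Rab29 are known substrates or partners of the kinase Lrrk2. Their mean levels were, for Rab8a, 72.7 ± 32.6, 92.9 ± 47.3, 79.1 ± 36.1 and 96.9 ± 46.2 CPM in Sham, BCAS, ND-Exos and WD-Exos. Rab10 had 55.8 ± 21.7, 47.3 ± 24.2, 36.1 ± 9.95 and 43.9 ± 13.5 CPM. Rab29 had 17.1 ± 14.1, 11.9 ± 9.7, 32.3 ± 20.3 and 22.9 ± 22.4 CPM, and Rab12 had 7.74 ± 10.2, 3.59 ± 4.34, 5.81 ± 10.2 and 1.73 ± 1.6. For all 4 the group ranges overlapped. The kinase gene itself, given here after its values were seen, had a count in 3 of 24 libraries, at most 4.29 CPM.

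The low members Rab7b, Rab3d and Rab19 had the largest fitted differences, and each rested on which libraries had any count. Rab7b, a late endosome gene with roles in Toll-like receptor traffic, had counts in 3 of 6 Sham libraries, with 59.1 CPM in replicate 3, 11.6 in replicate 1 and 3.32 in replicate 5. In BCAS only replicate 2 had any, at 0.0734 CPM. With ND-Exos 4 libraries had counts, at 3.15 to 27.6 CPM, and with WD-Exos only replicate 4, at 8.39. Sham replicate 3 was also the library with the highest summed endothelial markers, 543 CPM. Sham replicate 1 had the highest sums for border macrophages, 1360 CPM, and neurons, 351 CPM. In the ND-Exos group these sums reached at most 52.1 CPM for endothelial cells, 586 for border macrophages and 23.1 for neurons. The part of these sums in the Rab7b values was not tested. The edgeR adjusted p for Rab7b was 0.389 in BCAS against Sham, 0.577 in ND-Exos against BCAS, 1 in WD-Exos against BCAS and 0.44 in the operated groups against Sham. DESeq2 gave adjusted p of 0.0246 and 0.0355 for Rab7b in BCAS against Sham and ND-Exos against BCAS.

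Rab3d, of regulated secretion, had no count in any ND-Exos library. It had counts in 5 Sham libraries (highest 19.1 CPM), in 3 BCAS libraries (highest 47.3 in replicate 3, the others at most 0.404) and in 4 WD-Exos libraries (highest 20.8). The edgeR adjusted p was 0.577 in ND-Exos against BCAS and 0.524 in WD-Exos against ND-Exos, where DESeq2 gave 6.34e-20 and 3.61e-18. For Rab3d in the operated groups against Sham, edgeR's adjusted p was 0.787 and that of DESeq2 0.00618. Rab19, a Golgi gene, likewise had no count with ND-Exos. It had counts in 3 BCAS libraries, at 10.3, 11.9 and 11.4 CPM, in 2 WD-Exos libraries, at 5.02 and 14.7, and in 2 Sham libraries, at 2.5 and 9.19. Its edgeR adjusted p was 0.577 in ND-Exos against BCAS and 0.561 in WD-Exos against ND-Exos, where DESeq2 gave 4.77e-12 and 3.92e-11. Between 2 and 4 of the 6 libraries in each group compared with ND-Exos were themselves at 0 for Rab3d or Rab19. A count of 0 does not show that a transcript was absent, and no fold change is given against a group at 0. The contrast of operated groups with Sham averages log2 group means, so a group at 0 weighs on it for these genes.

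The regulators of Rab proteins were tested from lists of prenylation and recycling factors (10 tested), exchange factors (44), GAPs (32) and effectors (37). In the 5 directed comparisons 0 of the 123 passed by edgeR, where 0%, 0.0196%, 0%, 0.0196% and 0.558% of all genes did. At an unadjusted p under 0.05 there were 5, 2, 3, 7 and 5, with the comparisons in the order used for the Rab genes, where 6.04%, 4.47%, 3.71%, 5.33% and 6.72% of all genes reached it. The medians were 0.03, 0.05, -0.05, -0.03 and 0.01 in that order. Gdi2, the GDI protein that recycles most Rabs in non-neuronal cells and chosen here after its values were seen, had means of 981, 994, 1036 and 887 CPM in Sham, BCAS, ND-Exos and WD-Exos. Rin2, an exchange factor for Rab5 proteins, came nearest to the threshold. It had 270 ± 64.7 CPM (203 to 350) in Sham and 437 ± 113 (264 to 574) in BCAS, with means of 479 in ND-Exos and 366 in WD-Exos. Its log2 fold change was 0.70 (SE 0.20, edgeR adjusted p = 0.356) in BCAS against Sham and 0.66 (SE 0.17, edgeR adjusted p = 0.0731) in the operated groups against Sham. The GAP gene Tbc1d9b had 20.5 ± 16.7 CPM with ND-Exos, 55.6 ± 34 in BCAS and 74.2 ± 38.4 with WD-Exos. Its log2 fold change was -1.44 (SE 0.53, edgeR adjusted p = 0.596) in ND-Exos against BCAS and 1.85 (SE 0.53, edgeR adjusted p = 0.363) in WD-Exos against ND-Exos.

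The DENN domain gene Dennd11 had counts in 6 of 6 Sham libraries, at 10.6 ± 7.05 CPM, and in 1 of 6 BCAS libraries, at 0.0712 (edgeR adjusted p = 0.376). It had counts in 2 libraries each with ND-Exos and WD-Exos. Evi5l, a GAP gene, had 11.5 ± 13.2 CPM with WD-Exos and 0.293 ± 0.697 in BCAS (edgeR adjusted p = 1). Ier3ip1, of the endoplasmic reticulum to Golgi step, had 74.5 ± 13.6 CPM with WD-Exos and 120 ± 39 with ND-Exos (edgeR adjusted p = 0.706). The Arf and Sar GTPases, the other family of small GTPases of vesicle formation, had 20 tested genes and 0 passed by edgeR, beside the same shares of all genes. At an unadjusted p under 0.05 there were 2, 0, 0, 0 and 1. Their medians were 0.03, -0.02, -0.05, -0.05 and 0.04 in the 5 directed comparisons.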

How the data were processed

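Per the labels' protocols, sorted microglia were lysed, total RNA was extracted and cDNA was amplified by Smart-seq2. The deposited table gives estimated counts for each Entrez gene, not scaled between libraries; 76.8% of genes with values were whole numbers (tolerance 0.005) in every library. The sources used here do not name the aligner, counting tool or build. Values were rounded to whole counts. Symbols came from RefSeq (GRCm38.p6, names only) for 22002 identifiers; 62 had none, and 6186 identifiers were blank in every library. Transcript lengths are of the longest protein-coding GENCODE vM21 transcript.

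One edgeR 4.0.16 fit (R 4.3.3) with 4 group means held all 24 libraries: filterByExpr at a minimum of 10 counts, TMM factors 0.936 to 1.17, robust quasi-likelihood F tests, Benjamini-Hochberg adjustment over 10219 genes, threshold 0.05. Levels are mean ± SD of CPM, n = 6. Promoters were searched in the 300-base RefSeq windows. Alternatives were other size factors, filters, a replicate block, detected genes as a covariate, only the groups compared, limma voom (3.58.1), DESeq2 1.42.0 and leaving out each library. On simulated data made for BCAS against Sham, 200 of 10219 genes, all above 100 CPM, were changed in each simulation. The fit recovered 38.5% of those changed 2-fold and 96.8% of those changed 4-fold. Reads were amplified and carry no molecular identifiers, so they do not count independent molecules.

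The members, lists and tests were chosen with earlier results of these data known. Genes given singly were those with the 3 smallest p in each directed comparison, the 8 highest levels per kilobase, 14 chosen for their role, and any past the threshold or with groups that did not overlap. Of the regulators, the 2 smallest p in each pairwise comparison were named. Replicate numbers were taken only as names: same-numbered libraries of different groups had correlations of -0.358 to 0.337 in their deviations from group means.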

Additional observations from a re-analysis of the deposited data

Results flagged for a closer look

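Of 50 sets of 6 libraries (a gene in a group) examined on the log2(CPM + 1) scale, 7 held a library far from the other 5. Chance gives about 1 in 20 for sets without ties, and 4 of the 7 were among the 40 sets with a count in all 6 libraries. For Rab7 these were BCAS replicate 2, at 287 CPM against 555 to 696 in the others, and WD-Exos replicate 2, at 440 against 597 to 717. For Rab1a it was Sham replicate 1, at 90.6 CPM against 201 to 254. For Rab31 it was BCAS replicate 6, at 64 CPM against 200 to 344. The other 3 were sets with libraries at 0, to which that chance rate does not apply. For Rab7b they were BCAS replicate 2, at 0.0734 CPM, and WD-Exos replicate 4, at 8.39, with the other 5 libraries at 0. For Rab3d it was BCAS replicate 3, at 47.3 CPM against at most 0.404.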

How the results depend on the processing

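Of 142 alternatives for the 6 counts of Rab genes past the threshold, 137 gave 0, as reported. DESeq2 called 1 in BCAS against Sham (Rab7b), 3 in ND-Exos against BCAS (Rab19, Rab3d and Rab7b), 2 in WD-Exos against ND-Exos (Rab19 and Rab3d) and 1 in the operated groups against Sham (Rab3d). Without a filter on low counts, 2 were called in the last comparison (Rab25 and Rab26). Rab25 had counts in 2 Sham libraries and 1 WD-Exos library, and no count in BCAS or ND-Exos. Rab26 had 134 counts in Sham replicate 2, 1 count in BCAS replicate 1 and no count elsewhere. The cause of these calls was not tested. Leaving out each library in turn gave 0 in all 6. Of 111 alternatives for the medians over the Rab genes, 59 kept the sign and a size within 1.5 times, 39 kept the sign with a larger shift and 13 turned the sign. The medians ran from -0.26 to -0.09 in BCAS against Sham (lowest with the block, highest without BCAS replicate 2), from -0.23 (voom) to -0.03 in the operated groups against Sham, and from -0.03 to 0.12 in ND-Exos against BCAS, below 0 without ND-Exos replicate 2 or 5. They ran from -0.02 to 0.21 in WD-Exos against BCAS, below 0 with the covariate or without WD-Exos replicate 1, and from -0.10 to 0.06 in WD-Exos against ND-Exos, below 0 in 9 of 20 alternatives. Of 324 alternatives for single genes, 1 turned the direction: Rab7b in WD-Exos against BCAS was -1.86 without WD-Exos replicate 4, the library of that group with a count, and -1.86 to 8.23 over all libraries left out in turn. DESeq2 also called 205, 158, 119, 127, 273 and 163 of all genes in the 6 comparisons, against 0, 2, 0, 2, 57 and 3 by edgeR. In the operated groups against Sham, 983 genes passed without the filter, 119 with voom, and 15 to 90 with a library left out, 15 without Sham replicate 3 and 90 without BCAS replicate 2. Without BCAS replicate 2, 32 passed in BCAS against Sham.

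With the replicate number as a block, 0 Rab genes passed in each of the 6 comparisons, and genes of any kind numbered 0, 2, 0, 2, 39 and 2. The medians over the Rab genes were then -0.26, 0.03, 0.18, 0.03 and -0.12. Of 24 libraries, 5 correlated best with a library of their own number. The low genes were measured with little precision: for the 10 tested Rab genes below 10 CPM the SE on the log2 scale had a median of 2.06. The part of depth in this was not tested.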
